A study of Gallus gallus with 9 samples.

Results

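Cytochrome P450 genes were followed in the liver of broilers (meat chickens) raised with or without selenized yeast in their feed. The family was taken as every probe set of the array whose single gene symbol in the platform annotation is CYP followed by a digit, with CYP51A1 left out. This gave 67 of 38535 probe sets, for 42 symbols. The birds were 9 ROSS308 commercial broilers. The control group (4 birds) received the standard diet, with no added selenium, and the Se-yeast group (5 birds) received that diet with selenized yeast (Sel-Plex) to add 0.5 mg of selenium per kg. All birds were fed without restriction and slaughtered at 35 days of age, and whole liver was frozen at slaughter. RNA of each bird was read on 1 one-colour Affymetrix chicken array. Birds are labelled as biological replicates, numbered within a diet, and no sex, batch or pairing is named. A whole-liver sample mixes cell types, so fewer cells of a type and less RNA per cell cannot be told apart.

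P450 enzymes hold a heme group and insert 1 oxygen atom into fat-soluble substrates. Those of the endoplasmic reticulum take their electrons from the reductase POR, and those of mitochondria from FDXR through the small protein FDX1. In liver the CYP1, CYP2 and CYP3 families are best known for clearing drugs and other foreign chemicals, CYP4 enzymes for oxidising fatty acids, and CYP7, CYP8, CYP27 and CYP39 enzymes for turning cholesterol into bile acids. Several chicken genes carry a human symbol in the annotation. By the synonyms in the RefSeq gene table of assembly GRCg7b, CYP2C23a is the gene long known as CYP2H1 and CYP2C23b that known as CYP2H2, CYP2C18 is CYP2C45, CYP3A5 is CYP3A37, CYP3A4 is CYP3A80, CYP1A1 is CYP1A4 and CYP1A2 is CYP1A5.

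The tissue label was checked against markers. All 7 hepatocyte markers that had a probe set (ALB, TTR and APOA1 among them) were measured in each bird, with a mean log2 level from 15.33 to 15.62 in control and from 15.61 to 16.25 in Se-yeast birds. That level was 16.25 and 15.91 in Se-yeast birds 1 and 2, and 15.62, 15.70 and 15.61 in Se-yeast birds 3, 4 and 5. The fold changes of these markers were above 0 for 7 of 7, with a median of 0.31. After centring each array on its median they were above 0 for 7 of 7, with a median of 0.25. After quantile normalization they were above 0 for 5 of 7, with a median of 0.066. All 6 macrophage markers had a fold change above 0 under each scaling, at 12.54 to 12.91 in control and 12.76 to 13.11 in Se-yeast birds. Tested markers of kidney, an organ that also holds P450 enzymes, had mean log2 levels from 6.74 to 7.35 in control and from 5.89 to 7.12 in Se-yeast birds, near the filter level of 6.33. Of these 3 genes 2 were below 0, with a median of -0.59. The transporter SLC34A1 stood at -1.05 (limma unadjusted p = 0.0353, adjusted p = 0.999). UMOD stood at -0.59 and AQP2 at 0.28 (limma unadjusted p = 0.172 and 0.591). At a limma unadjusted p under 0.05 there were 3 of the 7 hepatocyte, 2 of the 6 macrophage and 1 of the 3 kidney markers. The share of all tested probe sets was 4.67%, and no marker of these lists passed after adjustment. With no further scaling, fold changes were above 0 for 2 of 2 cholangiocyte markers (median 0.43) and 5 of 6 stellate and fibroblast markers (0.092). The counts were 3 of 5 for endothelial, 4 of 6 for lymphocyte, 1 of 2 for intestine, 3 of 3 for steroid cell and 1 of 1 for muscle markers. Both erythroid markers were below 0, and their mean level ran from 12.955 to 15.04 in control and from 12.78 to 14.28 in Se-yeast birds. The part of these marker differences in any P450 value was not tested. The median signal of an array lay between 100.5 and 125, and pairs of arrays correlated at 0.933 to 0.963. Signals are MAS5 values in the authors' units, and a fold change is a difference of log2(signal + 16), Se-yeast minus control, from a limma fit. Signals of different probe sets have no common scale, so each is compared only with itself across birds. Words such as dim or low describe the signal and not the amount of transcript. The probe sets whose mean level reached the 40th percentile of the array, a signal of about 64.7, were tested: 37 of the 67, for 27 of the 42 symbols.

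The diets were compared to see which P450 transcripts of the liver differ with the supplement. No P450 probe set passed the threshold of an adjusted p under 0.05 (limma, Benjamini-Hochberg adjustment over all 23063 tested probe sets), where 6 of all tested probe sets, 0.026%, did. At an unadjusted p under 0.05 there were 2 of 37 P450 probe sets, 1 higher (CYP7B1) and 1 lower (a probe set of CYP2C23b), or 5.41%, beside 4.67% of all tested probe sets (2.69% higher and 1.98% lower). The groups overlapped for all 37, where 1.64% of all tested probe sets had groups that did not. Of the 37 fold changes 21 were above 0 and 16 below, with a median of 0.052 on the log2 scale beside 0.017 over all tested probe sets. The balance turned with the scaling, to 17 above and 20 below after quantile normalization and to 18 and 19 after centring each array on its median. The fold changes of 35 of the 37 lay between -0.6 and 0.6, and the exceptions were a CYP2C23b probe set at -5.31 and CYP7A1 at -1.21. For 25 of the 37 the 95% interval of the fold change, not adjusted for the number of probe sets, lay inside -1 and 1. A 2-fold difference of signal + 16 between the diets is outside the interval for these. For dim probe sets a 2-fold difference of the plain signal can still lie inside it. For the other tested probe sets the interval reached a 2-fold difference on this scale, except that of the CYP2C23b probe set at -5.31. That interval lay wholly beyond it (-7.58 to -3.03). The fit takes the same variance in both groups, while control birds of this probe set fell into separate clusters, so its interval sets no sure bound. That probe set did not pass after adjustment, and its groups overlapped. With 1 probe set for each P450 gene, 16 of 28 fold changes were above 0 and 12 below, with a median of 0.039. By role, the 23 probe sets of families CYP1 to CYP3 other than that of CYP2R1 stand for 14 genes. Their median was 0.052 (-0.017 and -0.0063 under those scalings). The median was 0.11 over 4 probe sets of fatty acid oxidation, for 3 genes, and 0.088 over 6 of bile acids and sterols, for 6 genes. The latter were 0.13 and 0.10 after quantile normalization and 0.054 and 0.030 after median centring. Both tested probe sets of vitamin D and A metabolism, for CYP2R1 and CYP26B1, were below 0, with a median of -0.43 (-0.48 and -0.49 under those scalings).

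**Figure D1:**
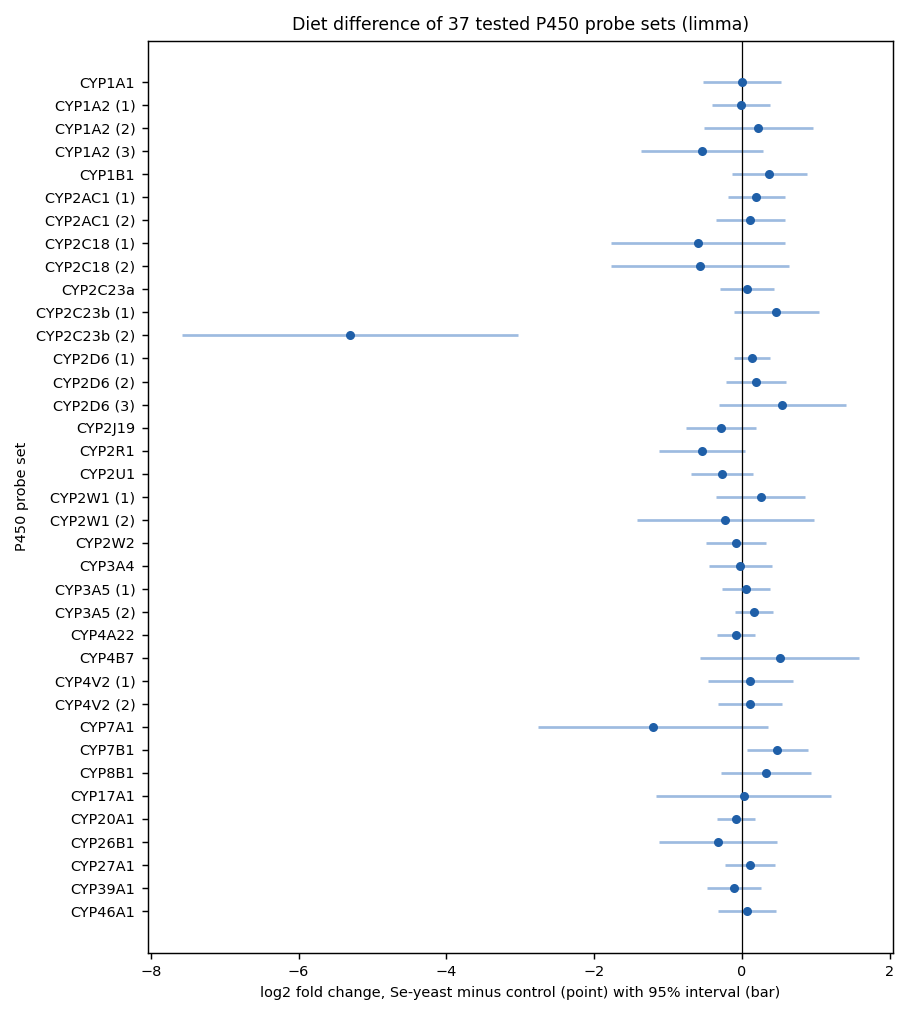
Log2 fold change (Se-yeast minus control, horizontal axis) of each of the 37 tested P450 probe sets with its 95% interval; numbers in brackets count the probe sets of one symbol, from the highest mean signal down. All points but those of the second CYP2C23b probe set (-5.31) and CYP7A1 (-1.21) lie between -0.6 and 0.6.

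Several P450 genes varied widely between birds that ate the same diet. The pooled SD between birds of a group had a median of 0.35 on the log2 scale over the 37 P450 probe sets, beside 0.34 over all tested probe sets and 0.21 over the 1848 tested probe sets with a mean level at or above the P450 median. The 0.35 also covers the P450 probe sets below that level, so it and the 0.21 are not of like sets. The ratio of the highest to the lowest bird was at least 2 for 24 of the 37 and at least 5 for 9. It ran from 1.22 for CYP20A1, a P450 with no settled substrate, to 433 for a probe set of CYP2C23b, whose other probe set had 2.77. These are ratios of plain signals, and the shares of all tested probe sets at such ratios are not given here. The 9 include both probe sets of CYP2C18. They also include dim probe sets of CYP1A2, CYP2D6, CYP2W1 and CYP17A1, whose lowest signals ran from 16.5 to 24.8. Se-yeast bird 5 was the highest bird for 8 of the 37 (21.6%, beside 13.2% of all tested probe sets), and Se-yeast bird 2 the lowest for 8 (21.6%, beside 14% of all). These were the largest counts of any bird, and those of Se-yeast bird 5 include both probe sets of CYP2AC1 and both of CYP4V2. Se-yeast bird 4 went the other way, highest for 2 (5.41%, beside 16.3% of all).

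**Figure D2:**
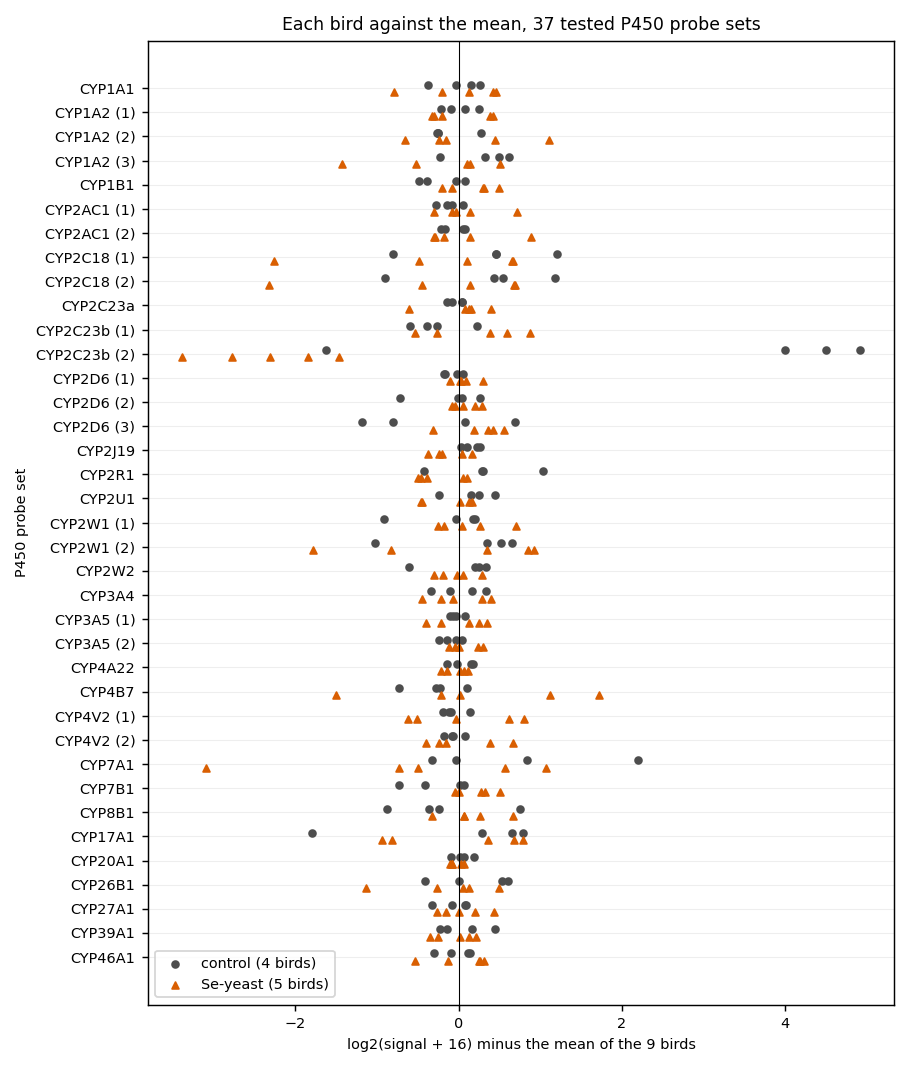
Log2(signal + 16) of each bird minus the mean of the 9 birds (horizontal axis) for the 37 tested P450 probe sets; circles are the 4 control and triangles the 5 Se-yeast birds. The groups overlap in every row, and the widest rows are the second CYP2C23b probe set, CYP7A1, both CYP2C18 probe sets and CYP4B7.

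The CYP1 enzymes are switched on by ligands of the aryl hydrocarbon receptor, such as dioxins, and no CYP1 probe set passed between the diets. CYP1A2 gave signals of 19269.6, 15122, 17052 and 13852 in control birds 1 to 4 and 20991, 12884, 21689, 13141 and 14062 in Se-yeast birds 1 to 5. The control birds lay inside the Se-yeast range, and the fold change was -0.0081 ± 0.18 (SE; 95% interval -0.40 to 0.38; adjusted p = 0.9995). CYP1A1 gave 866, 799.7, 702 and 553 in control and 972, 995, 787, 623 and 410.4 in Se-yeast birds. Se-yeast birds held both the highest and the lowest value, with a fold change of 0.0024 ± 0.25 (95% interval -0.53 to 0.54; adjusted p = 0.9998), below 0 under both other scalings. Although these genes are neighbours in the RefSeq gene table, their levels across the 9 birds were not shown to move together (Pearson r = 0.44, exact permutation p = 0.237; Spearman rho = 0.20, exact permutation p = 0.613; adjusted p over 13 pairs 0.617 and 0.837; r = 0.24 without Se-yeast bird 5 and control bird 4).

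CYP1B1, which in mammals acts on oestrogens and procarcinogens mostly outside the liver, had low signals of 97.2, 140.4, 128 and 90.0 in control and 192, 168, 113, 166 and 125 in Se-yeast birds. Se-yeast birds 1, 2 and 4 lay above all control birds and birds 3 and 5 inside their range, and the fold change of 0.37 ± 0.23 did not pass (adjusted p = 0.999). A further pair of dim probe sets carries the symbol CYP1A2 under another gene identifier that the RefSeq table does not hold, so their transcript is uncertain. One of them gave 77.2, 152, 138 and 122 in control and 104, 102, 139.6, 60.4 and 24.8 in Se-yeast birds, lowest in Se-yeast bird 5 (fold change -0.54 ± 0.38, adjusted p = 0.999). The other gave 85.9, 85.7, 84.8 and 130.1 in control and 244, 87.0, 93.2, 60.6 and 149 in Se-yeast birds, at 0.22 ± 0.34. Across birds they were not shown to move together (Pearson r = -0.14, exact permutation p = 0.703; Spearman rho = -0.12, exact permutation p = 0.776; adjusted p 0.940 and 0.877; r = 0.56 without Se-yeast birds 1 and 5). Both probe sets of CYP1C1 lay under the filter.

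CYP2C23a and CYP2C23b are the phenobarbital-inducible P450 pair of chicken liver, side by side in the RefSeq gene table. A probe set of CYP2C23b had the widest range of the family and the smallest unadjusted p. It read 19109, 189, 10034 and 14218 in control birds 1 to 4 and 213, 111, 159, 44.1 and 76.0 in Se-yeast birds 1 to 5. Control birds 1, 3 and 4 were high, while control bird 2 and all 5 Se-yeast birds were low and overlapped. The fold change was -5.31 ± 1.05 on the log2 scale and did not pass (95% interval -7.58 to -3.03; unadjusted p = 0.000242; adjusted p = 0.371; exact permutation p = 0.0159, two-sided, unadjusted). Without control bird 2 it was -6.83 and passed (limma adjusted p = 1.72e-05), and with any other bird left out it lay between -5.53 and -4.65 and did not pass. Its adjusted p ran from 1.72e-05 to 0.99995 over the 19 alternatives and was at least 0.348 in the other 18. The SE and interval take the same variance in both groups, while the control birds fell into separate clusters, so they set no sure bound.

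The gene's other probe set, whose probes can also read related transcripts, showed no such split. It read 22326, 14569, 12613 and 15879.9 in control and 15835, 34920.1, 13165, 28776 and 24862 in Se-yeast birds, and the highest bird here, Se-yeast bird 2, was among the low ones on the first probe set. Its fold change was of the opposite sign, 0.46 ± 0.27 (adjusted p = 0.999), with Se-yeast birds 2, 4 and 5 above all control birds. CYP2C23a gave 31141, 28745, 27407 and 31299 in control and 33289.6, 19872, 32123, 39903 and 33879 in Se-yeast birds, lowest in Se-yeast bird 2 and highest in Se-yeast bird 4, with a fold change of 0.068 ± 0.17 (adjusted p = 0.999) that was -0.017 after quantile normalization. This CYP2C23a probe set is of the same shared type (s_at) as the other one of CYP2C23b. A second CYP2C23a probe set was dim, from 10.2 to 42.5. What parts the birds on the first CYP2C23b probe set was not tested. CYP2C23a and this other CYP2C23b probe set were not shown to correlate across birds (Pearson r = -0.17, exact permutation p = 0.681; Spearman rho = 0.20, exact permutation p = 0.613; adjusted p 0.940 and 0.837), and this value rests on single birds, since r was 0.58 without Se-yeast birds 2 and 4 and 0.77 without Se-yeast bird 2 alone. In that last fit it passed (exact permutation, adjusted p = 0.0422), and the adjusted p ran up to 0.962 over the other alternatives.

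**Figure D3:**
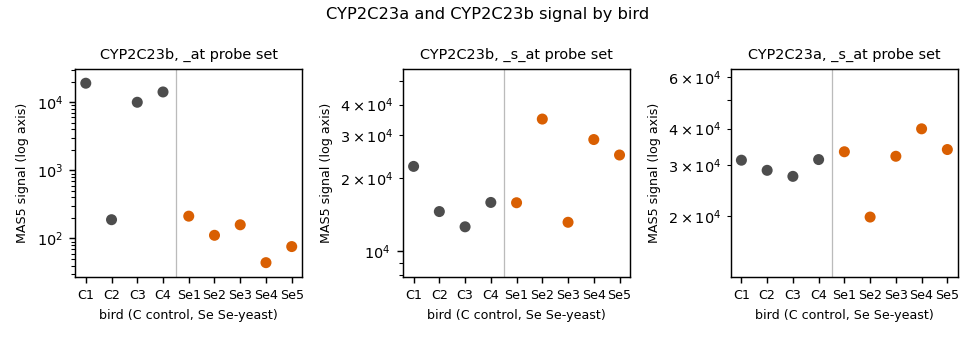
Signal (log axis) of the CYP2C23b and CYP2C23a probe sets in control birds 1 to 4 (C1 to C4, grey) and Se-yeast birds 1 to 5 (Se1 to Se5, orange). In the left panel C1, C3 and C4 lie at or above 10034 and the other 6 birds at or below 213; the middle panel shows the other probe set of the same gene, where no bird falls below 12613.

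CYP2C18, another member of the CYP2C group, varied widely between birds of both diets. Its first probe set read 6541, 15795, 15727 and 26422 in control birds 1 to 4 and 8189, 18002, 2374, 18236 and 12332 in Se-yeast birds 1 to 5, an 11.1-fold range. The lowest bird was Se-yeast bird 3, the next lowest were control bird 1 and Se-yeast bird 1, and control bird 4 was highest. The second probe set gave the same order of birds, 5421, 14675, 13691 and 22967 in control and 7421, 16234, 2005, 16254 and 11119 in Se-yeast birds. Across the 9 birds both probe sets moved together (Pearson r = 0.999, exact permutation p = 2.76e-06; Spearman rho = 1.0, exact permutation p = 5.51e-06; adjusted p 3.58e-05 and 7.17e-05 over 13 pairs), and r was 0.998 without Se-yeast bird 3 and control bird 1. The difference between the diets, -0.59 ± 0.54 and -0.57 ± 0.56, was smaller than the SD of 1.07 and 1.10 between birds of a group (adjusted p = 0.999 for both). With 1 bird left out they ran from -0.97, without control bird 1, to -0.093 and -0.050, without Se-yeast bird 3. A relation to the CYP3A genes was not shown (Pearson r = -0.088 with CYP3A4 and 0.030 with CYP3A5, Spearman rho = -0.23 and -0.033, exact permutation p of r 0.837 and 0.940 and of rho 0.552 and 0.948, adjusted p of r 0.940 for both), and these r were -0.59 and -0.54 without Se-yeast bird 3 and control bird 1.

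CYP2AC1, CYP2W2 and CYP2D6 varied less between birds. CYP2AC1 read 24520.4, 28000.3, 26875 and 30842 in control and 24004, 32689, 27955, 28975 and 48687 in Se-yeast birds, with Se-yeast bird 5 well above the other 8. Its other probe set showed the same bird on top, at 34725 beside 15222 to 20769.7 in the other 8, and the fold change of the first was 0.20 ± 0.18 (adjusted p = 0.999). The probe sets correlated across birds (Pearson r = 0.88, exact permutation p = 0.0152, adjusted p = 0.0493; Spearman rho = 0.72, exact permutation p = 0.0369, adjusted p = 0.120), r was 0.70 without Se-yeast birds 5 and 2, and without Se-yeast bird 5 alone it was 0.44, so its size rests on that bird. It did not pass in 8 of 9 fits with 1 bird left out. CYP2W2 gave 16056, 9184, 17622 and 16576 in control and 13807, 12179, 16974, 14551 and 11321 in Se-yeast birds, with control bird 2 lowest and a fold change of -0.080 ± 0.19 (adjusted p = 0.999).

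CYP2D6, in humans the enzyme that clears many antidepressants and beta blockers, had little spread, at 21147, 18932, 18988 and 22208 in control and 19906, 26276, 21576, 21769.6 and 22779.5 in Se-yeast birds on its probe set of highest mean. Its fold change was 0.14 ± 0.11 (95% interval -0.10 to 0.39; adjusted p = 0.999). A second probe set ranged from 877 to 1745 in control and from 1378 to 1784 in Se-yeast birds. The third was dim, at 32.1, 120.5, 73.0 and 21.2 and 79.9, 92.4, 108, 51.9 and 96.7, with 2 control birds under all Se-yeast birds and a fold change of 0.55 ± 0.40 (adjusted p = 0.999). Across birds the first and second probe sets were not shown to be related (Pearson r = 0.027, exact permutation p = 0.940; Spearman rho = 0.18, exact permutation p = 0.644; adjusted p 0.940 and 0.837; r = 0.12 without Se-yeast bird 2 and control bird 2).

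Probe sets of other CYP2 members had lower signals, which do not rank these genes by amount of transcript. CYP2R1, a hydroxylase that begins the activation of vitamin D in liver, read 318, 547, 323 and 189.7 in control and 278, 183, 179.5, 194 and 268 in Se-yeast birds. Control bird 2 was highest, control bird 4 lay among the Se-yeast birds, and the fold change of -0.54 ± 0.27 did not pass (unadjusted p = 0.0645, adjusted p = 0.999). CYP2U1, which in humans hydroxylates fatty acids, read 868, 809, 612 and 993 in control and 820.0, 796, 525, 736 and 531 in Se-yeast birds, at -0.27 ± 0.19 (adjusted p = 0.999). The highest bird was control bird 4 and the lowest Se-yeast bird 3, and the groups overlapped.

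CYP2W1 read 85.8, 200.5, 172 and 204 in control and 145, 181, 153, 297 and 213 in Se-yeast birds on its probe set of higher mean, at 0.25 ± 0.28 (adjusted p = 0.999). Its dimmer probe set gave 146, 39.2, 160.2 and 127 in control and 47.4, 16.5, 127, 187 and 196 in Se-yeast birds. It stood at -0.23 ± 0.55, and was not shown to be related to the first (Pearson r = 0.090, exact permutation p = 0.807; Spearman rho = 0.38, exact permutation p = 0.313; adjusted p 0.940 and 0.677; r = 0.19 without control bird 1 and Se-yeast bird 4). CYP2J19, which in the zebra finch is needed to make red carotenoid pigments, gave opposite signs on its probe sets. The tested one read 122, 135, 139 and 116 in control and 96.2, 128, 83.7, 93.3 and 117 in Se-yeast birds, at -0.28 ± 0.22 (adjusted p = 0.999). The one under the filter ran from 27.7 to 50.6 in control and from 59.7 to 92.3 in Se-yeast birds. It was the sole one of the 67 P450 probe sets whose groups did not overlap, or 1.49% beside 1.54% of all 38439 probe sets, and in the fit without a filter it did not pass (fold change 0.69 ± 0.30, unadjusted p = 0.0389, adjusted p = 0.9997).

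CYP3A enzymes oxidise a wide range of drugs and steroids and are induced in chicken liver by phenobarbital-like compounds. CYP3A5 read 37939.9, 33443, 34224 and 35145 in control and 45761, 27242, 30924, 42622 and 39156 in Se-yeast birds. The control birds lay inside the Se-yeast range, and the fold change was 0.052 ± 0.15 (95% interval -0.27 to 0.38; adjusted p = 0.999), below 0 under both other scalings. Its other probe set read 24226, 19908, 22975 and 21208 and 28793, 21683, 22771, 27577 and 23526, at 0.17 ± 0.12 (adjusted p = 0.999). The probe sets of CYP3A5 moved together across birds (Pearson r = 0.79, exact permutation p = 0.0120, adjusted p = 0.0493; Spearman rho = 0.80, exact permutation p = 0.0138, adjusted p = 0.0899; r = 0.74 without Se-yeast birds 1 and 2), but did not pass after quantile normalization or in 7 of 9 fits with 1 bird left out. CYP3A4, its neighbour in the RefSeq table, read 1593, 1803, 1318 and 1121 in control and 1879, 1043, 1219.7, 1745 and 1357 in Se-yeast birds, at -0.020 ± 0.20 (adjusted p = 0.999).

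CYP4 enzymes oxidise the far end of fatty acid chains, and CYP4B7 and CYP4V2 were both highest in the same 2 Se-yeast birds. CYP4B7 read 3012, 4264, 5373 and 4132 in control and 1758, 5067, 4298, 10907 and 16514 in Se-yeast birds. Se-yeast birds 4 and 5 were above all control birds and Se-yeast bird 1 was below them, and the fold change of 0.51 ± 0.49 did not pass (95% interval -0.56 to 1.58; adjusted p = 0.999). It was 0.14 without Se-yeast bird 5 and 0.94 without Se-yeast bird 1. CYP4V2, a fatty acid hydroxylase whose loss causes a retinal dystrophy in humans, was also highest in Se-yeast birds 4 and 5, at 11888 and 13513 beside 5051 to 8526 in the other 7. On its second probe set these 2 birds had 4799 and 5855 beside 2783 to 3891. The CYP4V2 probe sets correlated (Pearson r = 0.91, exact permutation p = 0.00125, adjusted p = 0.00813; Spearman rho = 0.73, exact permutation p = 0.0311, adjusted p = 0.120; r = 0.62 without Se-yeast birds 4 and 5). CYP4A22, the neighbour of CYP4B7 in the RefSeq table, did not share this pattern and ranged from 12970.0 to 16216 in control and from 12262 to 15473 in Se-yeast birds.

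**Figure D4:**
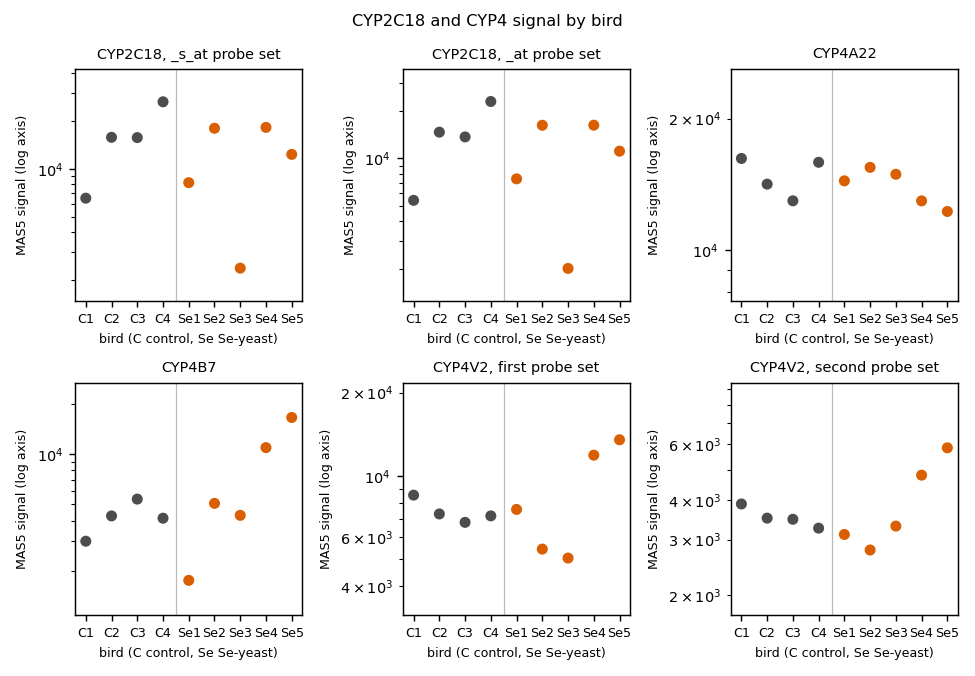
Signal (log axis) of CYP2C18 and of the CYP4 genes in control birds 1 to 4 (C1 to C4, grey) and Se-yeast birds 1 to 5 (Se1 to Se5, orange). Both CYP2C18 panels show the same order of birds, with Se3 lowest (2374 and 2005), and in CYP4B7 and CYP4V2 the highest birds are Se4 and Se5.

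Bile acid synthesis starts in liver with CYP7A1, its rate-limiting enzyme, or on a second route with CYP27A1 and CYP7B1. CYP7A1 differed most between birds after the CYP2C23b probe set that splits the control birds. It read 4425, 2417, 1964 and 11369 in control birds 1 to 4 and 1739, 3648, 5209, 1484 and 275 in Se-yeast birds 1 to 5. Control bird 4 was highest, Se-yeast bird 5 was lowest at a 41.3-fold distance, and the other birds of both groups overlapped. The fold change was -1.21 ± 0.72 on the log2 scale (95% interval -2.76 to 0.35; unadjusted p = 0.118; adjusted p = 0.999), and it was -0.57 without Se-yeast bird 5.

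CYP7B1, the hydroxylase that acts on oxysterols, had the next smallest p after the CYP2C23b probe set that splits the control birds. Its signals were 878, 1185, 697 and 1221 in control and 1137, 1419.9, 1474, 1169.5 and 1669 in Se-yeast birds. Se-yeast birds 2, 3 and 5 lay above all control birds and Se-yeast birds 1 and 4 inside their range. The fold change was 0.48 ± 0.19 (95% interval 0.071 to 0.89; unadjusted p = 0.0251), and it did not pass after adjustment (adjusted p = 0.999; exact permutation p = 0.0794). CYP8B1, which directs the pathway to cholic acid, read 2044, 3199, 6374 and 2945 in control and 3012, 3948, 4551, 6005 and 3949 in Se-yeast birds. Control bird 3 was highest and control bird 1 lowest, with a fold change of 0.33 ± 0.28 (adjusted p = 0.999). CYP7A1 and CYP8B1 were not shown to be related across birds (Pearson r = -0.32, exact permutation p = 0.408; Spearman rho = -0.45, exact permutation p = 0.230; adjusted p 0.883 and 0.598; r = -0.42 without Se-yeast bird 5 and control bird 4).

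CYP27A1, the mitochondrial sterol hydroxylase, ranged from 4976 to 6636 in control and from 5204 to 8415 in Se-yeast birds. A relation to CYP7B1 was not shown (Pearson r = 0.18, exact permutation p = 0.642; Spearman rho = 0.10, exact permutation p = 0.810; adjusted p 0.940 and 0.877), and r turned to -0.39 without Se-yeast bird 3 and control bird 1. CYP39A1, another oxysterol hydroxylase of liver, ranged from 5087 to 8156 in control and from 4682 to 6944 in Se-yeast birds. CYP46A1, in mammals a cholesterol hydroxylase of the brain, ranged from 2861 to 3897 and from 2441 to 4387 in the same order. The groups of these 3 genes overlapped.

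**Figure D5:**
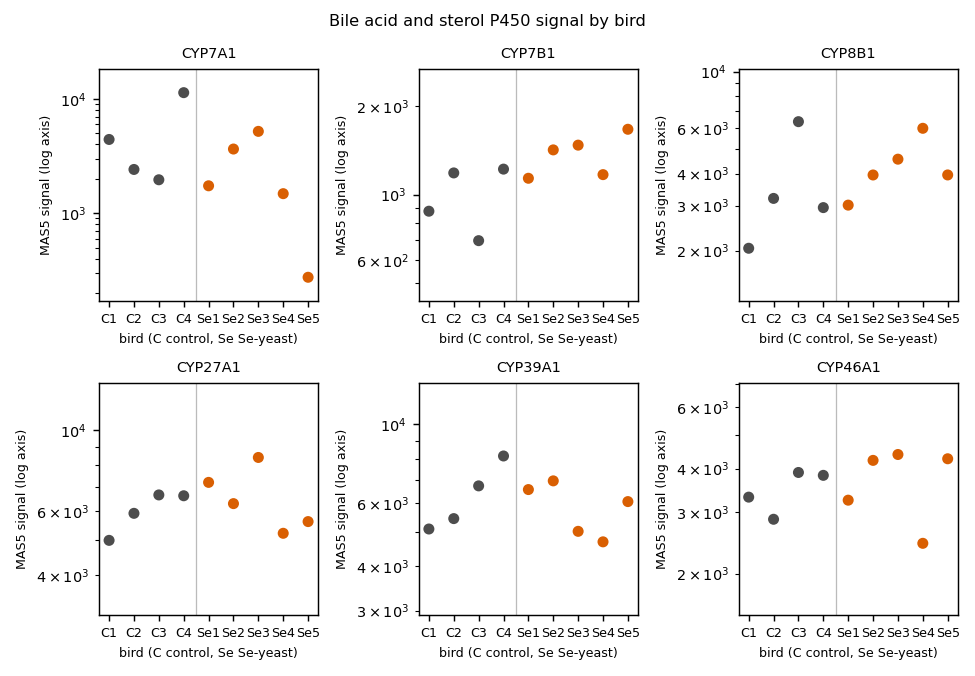
Signal (log axis) of 6 bile acid and sterol P450 genes in control birds 1 to 4 (C1 to C4, grey) and Se-yeast birds 1 to 5 (Se1 to Se5, orange). CYP7A1 runs from 275 in Se5 to 11369 in C4, and for CYP7B1 the birds Se2, Se3 and Se5 lie above all control birds, whose highest signal is 1221.

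P450 enzymes of hormone and vitamin metabolism were mostly under the filter. CYP17A1, which makes androgen precursors in steroid-forming cells, was tested at dim signals of 185, 125, 17.4 and 167 in control and 169, 44.4, 184, 49.7 and 132 in Se-yeast birds. Control bird 3 was lowest and the fold change was 0.025 ± 0.55 (adjusted p = 0.999), below 0 under both other scalings. All 5 probe sets of the steroid-forming CYP11A1, CYP19A1 and CYP21A1 were untested, with signals from 1.56 to 34.1. CYP26B1, which breaks down retinoic acid, ranged from 25.3 to 121 on its tested probe set. Another 9 untested probe sets of CYP24A1, which breaks down vitamin D, of the CYP26 genes and of CYP27C1 had signals from 1.65 to 116. The 7 probe sets of the 5 CYP2AB genes, a row of neighbours in the RefSeq table, were also untested, from 1.38 to 132. The 3 probe sets of CYP2AC7, the neighbour of CYP2W2, reached at most 73.5, that of CYP2J24P 94.4 and a further one of CYP27A1 25.0. In all, 30 probe sets were untested and 15 symbols had no tested probe set. The file used gives no detection calls, so these signals cannot be called present or absent.

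Genes that work with P450 enzymes were read from 5 lists, each gene by its tested probe set of highest mean. Of 62 such genes 36 had a fold change above 0 and 26 below, with a median of 0.068. Above 0 were 12245 of all 23063 tested probe sets. The gene counts were 35 and 27 after quantile normalization and 32 and 30 after centring on the median. None of the 62 passed over all probe sets (limma), and 2 had an unadjusted p under 0.05 (3.23%, beside the 4.67% given above). POR, the electron donor, had signals of 5562 ± 679 in the 4 control birds and 5495 ± 1165 in the 5 Se-yeast birds (mean ± SD) (fold change -0.036 ± 0.16, adjusted p = 0.999). FDXR, which starts the electron chain of mitochondrial P450 enzymes, had 133 ± 21.1 in the 4 control birds and 203 ± 30.5 in the 5 Se-yeast birds (mean ± SD), at 0.55 ± 0.20 (unadjusted p = 0.0146, adjusted p = 0.999). PGRMC2, a heme-binding partner, stood at 0.21 ± 0.14.

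Heme supply showed no call either. ALAS1, the rate-limiting enzyme of heme synthesis in liver, had 3293 ± 990.5 in the 4 control birds and 2829 ± 802 in the 5 Se-yeast birds (mean ± SD) (fold change -0.21 ± 0.27, adjusted p = 0.999). ALAD, the next enzyme, had 967 ± 115 in the 4 control birds and 751 ± 102 in the 5 Se-yeast birds (mean ± SD), at -0.36 ± 0.15 (unadjusted p = 0.0318, adjusted p = 0.999). Heme oxygenase HMOX1, which breaks heme down, stood at 0.36 ± 0.17 (adjusted p = 0.999). In the electron list 6 of 9 genes had a fold change above 0 (5 of 9 after quantile normalization), in the heme list 5 of 9.

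Among receptors and regulators 12 of 16 genes had a fold change above 0, with a median of 0.086 and none at an unadjusted p under 0.05. Those above 0 were 13 of 16 after quantile normalization and 9 of 16 after centring on the median. NR1I3, the xenobiotic receptor of chicken liver, had 1357 ± 122 in the 4 control birds and 1422 ± 198 in the 5 Se-yeast birds (mean ± SD) (fold change 0.058 ± 0.14). NR1H4, the bile acid receptor, stood at 0.14 ± 0.19, its target repressor NR0B2 at 0.027 ± 0.21 and the liver regulator HNF4A at -0.023 ± 0.15. The smallest p of this list belonged to the clock repressor NR1D2 at 0.48 ± 0.27 and the retinoid receptor RXRG at 0.36 ± 0.22. In the list of other bile acid genes 4 of 11 were above 0, with KLB, a co-receptor for FGF19, at 0.25 ± 0.14 and AKR1D1, a reductase of bile acid synthesis, at -0.36 ± 0.23. Of 17 genes of drug conjugation and other oxidation 9 were above 0, or 8 under either other scaling, with XDH, which makes uric acid, at 0.75 ± 0.37 and the monooxygenase FMO4 at 0.29 ± 0.17. None of these had an unadjusted p under 0.05. The signs of NR1I3, NR0B2 and HNF4A, all near 0, each turned under 1 other scaling. No probe set carried the bare symbol AHR, and the aryl hydrocarbon receptor genes AHR1A and AHR2 are among the 16 of the receptor list.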

How the data were processed

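Liver RNA of 9 birds was measured, each on 1 Affymetrix chicken array. The deposited values are MAS5 signal intensities on a linear scale, made by the authors per the submitters' processing notes; the version and settings of MAS5 and the genome build are not given in the sources used here. Every array had nearly the same trimmed mean, and the table gives no detection calls. Probe sets were named from the platform annotation, and 65 of the 67 P450 probe sets had a gene ID in the RefSeq table. Of the 37 tested, 14 have names ending in s_at, x_at or a_at, whose probes can be shared between transcripts.

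From these intensities log2(signal + 16) was computed, the 96 array controls were left out, and probe sets at or above the 40th percentile of the mean were fitted with limma 3.58.1 in R 4.3.3 (eBayes with an intensity trend, 2 diet groups, no covariates). P-values were two-sided and adjusted by Benjamini-Hochberg over 23063 probe sets. The fit was tested on simulated data of independent normal values with added shifts, which hold no clustered birds such as those of CYP2C23b. The outcome of that run is not used as support here. Exact permutation tests used all 126 splits of the birds, for which the smallest p is 0.00794, or all pairings for correlations (scipy 1.17.1). The number of arrays limits the precision.

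Values in every bird are given for the probe set of highest mean of each tested CYP1, CYP2, CYP3, CYP7 and CYP8 gene, the 10 P450 probe sets of smallest p and the 8 of largest SD; the others are given by range. Partner genes named are the 2 of smallest p in each list and a few fixed regulators. The pairs of probe sets correlated were chosen by symbol, and the CYP2C23b pair was left out because its birds fall into separate clusters. Members and lists were chosen with earlier results of these data known. Alternatives were 2 pseudocounts, 2 filters, 2 normalizations, 2 variance models, a replicate block, a covariate and leaving out each bird; those for the correlations were chosen after seeing the data.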

Additional observations from a re-analysis of the deposited data

Results flagged for a closer look

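In 54 groups of birds, 3 held a bird far from the rest, by the gap to its nearest neighbour over the range of the group. The groups are those of 27 named P450 probe sets, some of them chosen for smallest p or largest SD. For normal values not so chosen, chance flags about 1 group in 20. That rate does not hold for these groups, and no conclusion is drawn from the number flagged. For the dim CYP1A2 probe set without a RefSeq gene, control bird 4 was highest, with a ratio of 0.97 (130.1 beside 84.8 to 85.9). On the CYP2C23b probe set that splits the control birds, control bird 2 was lowest, with a ratio of 0.858 on the log2 scale (189 beside 10034 to 19109). For CYP2W2 control bird 2 was also lowest, with a ratio of 0.857 (9184 beside 16056 to 17622). Whether something about control bird 2 is shared by both genes was not tested.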

How the results depend on the processing

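No P450 probe set passed after adjustment under any of 19 alternatives but 1, the fit without control replicate 2, so the count ran from 0 to 1 when birds were left out. No partner gene passed under any. The number of P450 probe sets with an unadjusted p under 0.05 was 4 of all 67 with no filter, beside 2 of 37 in the main fit. The 4 include probe sets under the filter, of CYP2J19 (given above) and of CYP2AB2 (-0.79, limma unadjusted p = 0.0482). Among the 37 the number was 4 with a covariate, and ran from 1 (without Se-yeast bird 5) to 4 (without Se-yeast bird 1 or 3) when birds were left out. The shares of all probe sets under these alternatives are not given here. The median P450 fold change was -0.017 after quantile normalization, -0.0063 after median centring and -0.092 with the covariate, and ran from -0.030 to 0.11 when birds were left out. The labels name no pairing of birds by replicate number. Correlations of same-number birds ran from -0.11 to 0.038, which cannot settle whether birds were paired. With the numbers as a replicate block, Se-yeast bird 5 has no partner and drops out of the estimates, which equal those without that bird. In that fit 1 P450 probe set had a limma unadjusted p under 0.05, and the median was -0.0057. The fold changes of CYP1A2 (0.041), CYP17A1 (-0.060) and POR (0.044) turned there. The covariate was the mean of 10 probe sets mapped to W-chromosome genes in the RefSeq table; 5 of these are NEDD4L and 1 is MBD2, which are not particular to that chromosome, so it is no clean measure of sex. On HINTW Se-yeast bird 1 stood apart, at log2 8.69 beside 5.32 to 7.02 in the others, and on LOC107049459, at 10.31 beside 5.38 to 7.09. The same bird was also highest on MBD2 (11.64 beside 10.99 to 11.37). It was the lowest bird on LOC425347 (6.83 beside 7.11 to 7.74) and on LOC427025 (5.61 beside 6.02 to 7.32), so these genes do not all go the same way. Of 43 single-gene fold changes 28 kept their direction throughout, 17 of 27 for P450, but 19 of those 28 moved by over 1.5 times with some bird left out, and CYP4B7 was 1.51 with the covariate. All 43, those that turned among them, were without a call in the main fit. After quantile normalization CYP1A1 was -0.0056, CYP2C23a -0.017, CYP3A5 -0.077, CYP17A1 -0.018 and HNF4A 0.0015. After median centring CYP1A1 was -0.056, CYP3A5 -0.0063, CYP17A1 -0.033, NR1I3 -0.00043 and NR0B2 -0.032. A pseudocount of 64 gave -0.026 for CYP17A1. With the covariate CYP1A1 was -0.17, the dim CYP1A2 probe set -0.38, CYP2C23a -0.033, the dim CYP2W1 probe set 0.18, CYP3A5 -0.15, CYP17A1 -0.79, POR 0.022, ALAS1 0.19 and HNF4A 0.21. With birds left out the ranges were -0.12 to 0.20 for CYP1A1, -0.12 to 0.075 for CYP1A2, -0.026 to 0.42 for the dim CYP1A2 probe set, -0.023 to 0.23 for CYP2C23a, -0.0030 to 0.37 and -0.61 to 0.20 for the CYP2W1 probe sets, -0.30 to 0.017 for CYP2W2, -0.14 to 0.088 for CYP3A4, -0.030 to 0.16 for CYP3A5, -0.57 to 0.29 for CYP17A1, -0.12 to 0.044 for POR, -0.093 to 0.21 for NR0B2 and -0.11 to 0.053 for HNF4A. The correlation of the CYP2D6 probe sets was -0.21 after quantile normalization and ran from -0.062 to 0.11 with birds left out; that of CYP2C18 with CYP3A5 was -0.15 after median centring and ran from -0.46 to 0.24. The other correlations that turned with birds left out ran from -0.061 to 0.42 for CYP27A1 with CYP7B1, -0.54 to 0.11 for CYP2C18 with CYP3A4, -0.52 to 0.77 for CYP2C23a with CYP2C23b, -0.14 to 0.40 for the CYP2W1 pair and -0.34 to 0.23 for the dim CYP1A2 pair. The cause was not tested. Of the same-gene correlations that passed, that of CYP2C18 passed throughout (0.998 to 0.999), while with 1 bird left out the call was lost for CYP4V2 in 2 of 9 fits (0.848 to 0.966), for CYP3A5 in 7 (0.670 to 0.847) and for CYP2AC1 in 8 (0.44 to 0.95). After quantile normalization with all birds CYP3A5 also lost it (r = 0.597, adjusted p = 0.300). That of CYP2C23a with CYP2C23b gained a call without Se-yeast bird 2 (adjusted p = 0.0422).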
